A study of Mus musculus with 4 samples.

Results

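Egr, Nr4a and Klf transcription factors, together with *Ier2* and *Btg2*, were followed across clusters of group 2 innate lymphoid cells (ILC2s) from liver and lung, and of the cells sorted with them. The 9 genes were *Egr1*, *Nr4a1*, *Nr4a2*, *Nr4a3*, *Klf2*, *Klf4*, *Klf6*, *Ier2* and *Btg2*. They were chosen by name, and all of them were among the 3488 genes held by at least 1 of the 2 deposited marker tables and among the 820 held by both.

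The cells came from wild-type, 8-week-old BALB/c mice that received recombinant IL-33 (rIL-33, 0.5 µg) or PBS intraperitoneally once a day for 5 days. ILC2s were sorted from liver and from lung as lineage-negative cells positive for CD127, Thy1 and ST2, which gave 4 groups (PBS lung, PBS liver, rIL-33 lung, rIL-33 liver), with 1 single-cell RNA library in each and the tissue of several mice pooled per group. The groups shared the strain, the wild-type genotype, the sort and the injection schedule, and the organs were digested warm with different dissociation kits. A cell type table set each of 21 named types against the remaining cells, and an ILC2 subcluster table compared each of 10 subclusters, numbered from 0, with all other ILC2s. Both tables pooled the 4 libraries, so neither treatment nor organ could be compared, no value had a replicate and no difference was tested. Sequencing depth and cell counts are not held by the tables. Clusters had also been formed from the same cells, so a cluster against the rest is a description.

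Immediate early genes are switched on within minutes of a stimulus by transcription factors that are already present in the cell, without new protein synthesis, and their mRNAs are mostly short-lived. EGR1 and the KLF proteins bind GC-rich DNA through zinc fingers, whereas the NR4A proteins are orphan nuclear receptors whose activity follows their amount. In lymphocytes these genes respond to antigen receptor, cytokine and stress signals, and several of them also respond to the warm digestion of a tissue.

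A listing here is 1 gene in 1 cluster of a table. It gives how many percent of the cells in that cluster had a value above 0, which is called the share here, beside the same percentage outside it. The paper describes counts scaled by the total of each cell and log-transformed, but not which values the marker search was given. A value above 0 is therefore not taken as detection of a transcript. Genes were listed where their average level was higher inside the cluster. A gene that a cluster did not list may have been too rare to test, unchanged or lower in it. The 9 genes had 26 of the 3745 listings in the ILC2 subcluster table and 47 of the 4422 in the cell type table. The share of cells was higher inside the cluster in 22 of the 26 (84.6%, against 70.5% of all listings) and in 41 of the 47 (87.2%, against 83.7%). In the ILC2 subcluster table, 978 of the 1102 listings with lower shares were those of subcluster 5, as were all 4 such listings of the 9 genes.

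Within the ILC2s, the 9 genes were listed for 5 subclusters, 1, 3, 5, 7 and 8, and for none of 0, 2, 4, 6 and 9. Subcluster 3, which held 14.9% ± 0.0315 (SE of the fit) of the ILC2s by the solved sizes, listed 8 of the 9, all but *Klf2*, where 9.01% of the 2629 genes of the table were listed. Subcluster 1, with 20.1% ± 0.0166 (SE of the fit) of the ILC2s, listed 5, *Klf2*, *Nr4a1*, *Ier2*, *Btg2* and *Nr4a3*, against 13.8% of all genes. Subcluster 7 (1.42% of the ILC2s) listed 5, *Nr4a1*, *Egr1*, *Btg2*, *Klf2* and *Ier2*, against 10.3%. Subcluster 8 (0.668% of the ILC2s) listed 3, *Nr4a1*, *Nr4a3* and *Btg2*, against 9.62%. Subcluster 5 (3.87% of the ILC2s) listed 5, *Btg2*, *Klf6*, *Klf2*, *Ier2* and *Egr1*, against 38.0%, which was the longest list of the 10. Counting only genes with a share at least 10 percentage points above the other ILC2s, subcluster 7 held 5 of the 9, subclusters 1 and 3 held 4 each, subcluster 8 held 2 and subcluster 5 held 0. The share of all genes that pass this gap was not computed, and it differed between subclusters. In subcluster 7 the listing ranked 249 of 270 still had a gap of 11.2 points, whereas in subcluster 3 the one ranked 68 of 237 had 9.9. These counts are therefore not a ranking of the subclusters. The subclusters that listed none of the 9 listed 11.4% of all genes (subcluster 0), 4.98% (2), 30.5% (4), 7.23% (6) and 7.57% (9).

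**Figure D1:**
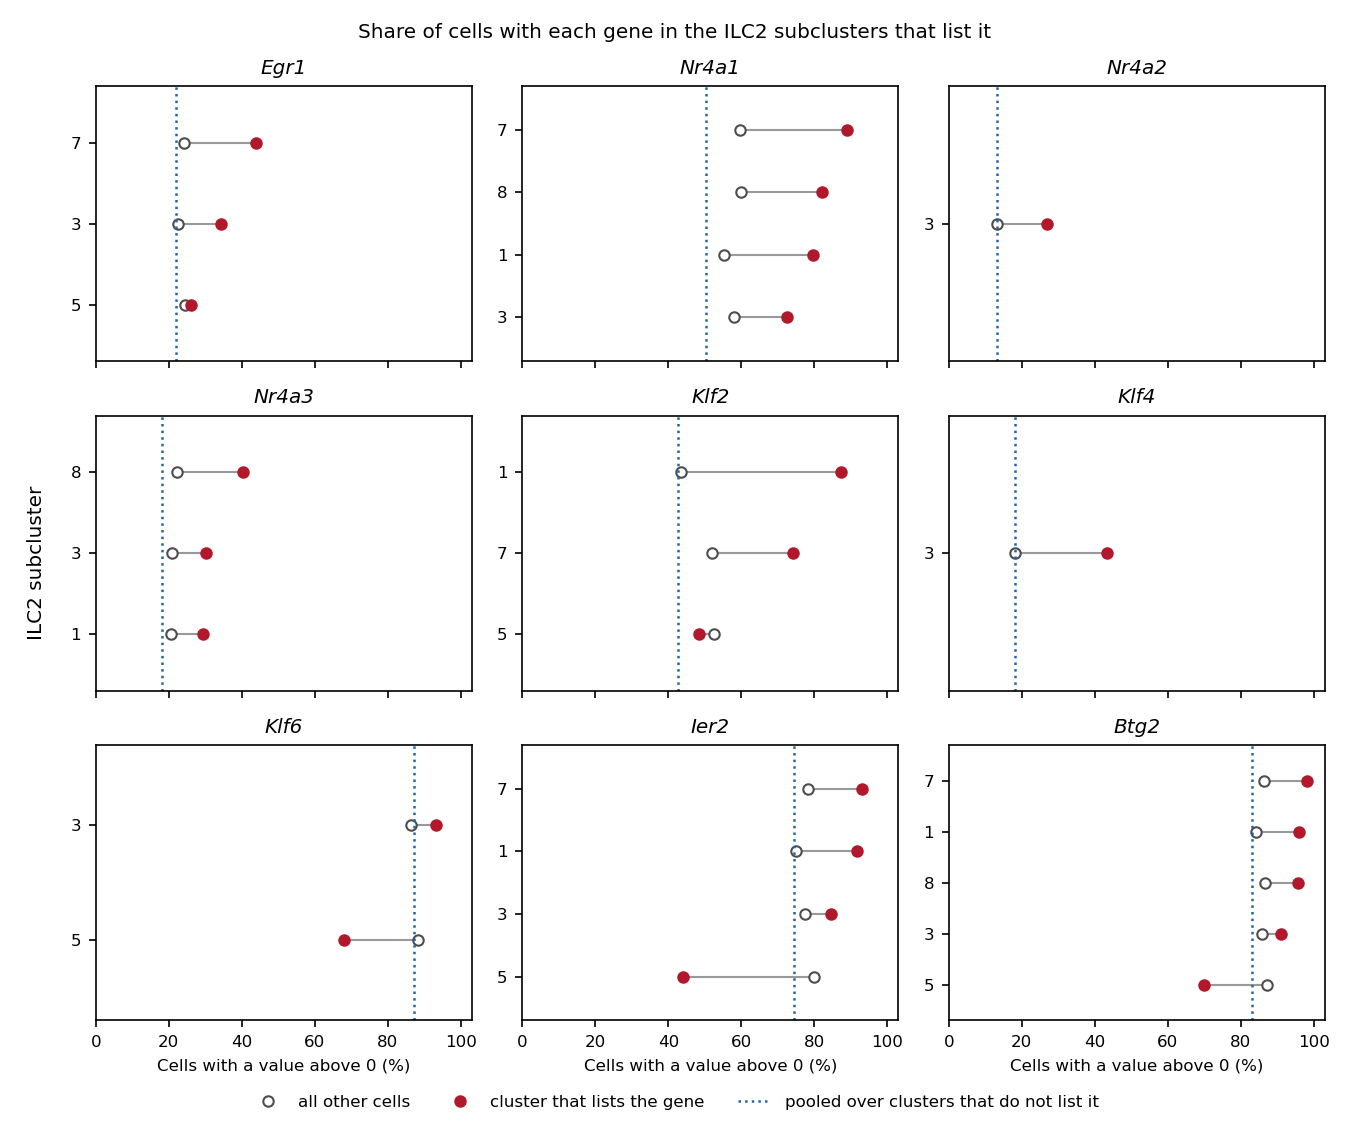
Each panel gives 1 gene; the horizontal axis is the percentage of cells with a value above 0, and each line on the vertical axis is an ILC2 subcluster that lists the gene (filled point, inside the subcluster; open point, all other ILC2s; dotted line, pooled over the subclusters that do not list it). *Klf2* spans the widest gap, 87.4% against 43.5% in subcluster 1, and in subcluster 5 the filled points of *Btg2*, *Klf6*, *Klf2* and *Ier2* lie left of the open ones.

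Subcluster 5 differed from the other 4 in the direction of the shares. *Ier2* was above 0 in 44.1% of its cells against 79.8% of the other ILC2s, *Klf6* in 68.0% against 88.1%, *Btg2* in 69.9% against 87.2% and *Klf2* in 48.5% against 52.4%. Only *Egr1* had the higher share there, 26.1% against 24.3%. Lower shares were general in that subcluster, where 97.8% of its 1000 listings had them, so these genes were above 0 in fewer cells while their average over the cells was higher. The part of cell size, depth or RNA quality in this was not tested, because the tables hold no value per cell.

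*Egr1* (chromosome 18, 34859823-34864984, plus strand; all coordinates are GRCm38, the build called mm10, with GENCODE gene models) encodes a zinc finger transcription factor that is an early target of MAP kinase signalling. It was above 0 in 24.4% of all ILC2s. Its share was 44.0% in subcluster 7 (24.1% in the other ILC2s), 34.3% in subcluster 3 (22.6% in the others) and 22.1% over the 7 subclusters that did not list it. None of the 5 genes of its family and of its NAB corepressors that were looked up, *Egr2*, *Egr3*, *Egr4*, *Nab1* and *Nab2*, had a listing in the ILC2 subcluster table.

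*Ier2* (chromosome 8, 84661331-84662852, minus strand), which encodes a small nuclear protein induced early by growth factors, was above 0 in 78.4% of the ILC2s. It was above 0 in 93.0% of subcluster 7 against 78.2% of the other ILC2s, in 91.7% of subcluster 1 against 75.0%, and in 84.4% of subcluster 3 against 77.3%. The subclusters that did not list it had 74.3% together.

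The Nr4a genes differed in their shares over all ILC2s. *Nr4a1* (Nur77; chromosome 15, 101254269-101274795, plus strand), which rises after antigen receptor stimulation in T cells, was above 0 in 60.1% of the ILC2s, *Nr4a3* (Nor1; chromosome 4, 48045153-48086447, plus strand) in 22.3% and *Nr4a2* (Nurr1; chromosome 2, 57106830-57124003, minus strand) in 15.3%. *Nr4a1* was above 0 in 89.0% of subcluster 7 against 59.7% of the other ILC2s, in 82.0% of subcluster 8 against 60.0%, in 79.5% of subcluster 1 against 55.3%, and in 72.5% of subcluster 3 against 58.0%. The subclusters without a listing for it had 50.2% together, below each of those 4. *Nr4a3* was listed for 3 of the same 4 subclusters, with 40.4% of subcluster 8 against 22.2%, 30.2% of subcluster 3 against 20.9%, and 29.3% of subcluster 1 against 20.5%. *Nr4a2* was listed for subcluster 3 alone, with 27.0% against 13.3%. Subcluster 3 was thus the only one of the 10 that listed all of the 3 genes.

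The promoters of the 3 Nr4a genes and of *Btg2* are printed because they hold the most matches to the cAMP response element (CRE), the site of CREB, among the 7 of 9 genes with an entry in the RefSeq promoter table (GRCm38.p6; 250 bases before the start to 50 after, on the strand of the gene). Capitals mark the core TGACG, searched on both strands (CGTCA on the other), and, in *Btg2*, the full element TGACGTCA, which overlaps the core on either strand. They lie at chr15:101266596-101266895 (+, *Nr4a1*), chr2:57123954-57124253 (-, *Nr4a2*), chr4:48045055-48045354 (+, *Nr4a3*) and chr1:134079106-134079405 (-, *Btg2*), and the RefSeq start of *Nr4a1* is downstream of its first GENCODE start.
Nr4a1: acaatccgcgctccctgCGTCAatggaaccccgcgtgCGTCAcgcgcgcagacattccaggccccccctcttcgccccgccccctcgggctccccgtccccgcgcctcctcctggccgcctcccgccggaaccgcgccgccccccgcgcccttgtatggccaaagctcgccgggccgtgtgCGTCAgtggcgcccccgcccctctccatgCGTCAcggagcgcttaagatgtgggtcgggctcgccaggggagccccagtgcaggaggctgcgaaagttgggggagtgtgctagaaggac
Nr4a2: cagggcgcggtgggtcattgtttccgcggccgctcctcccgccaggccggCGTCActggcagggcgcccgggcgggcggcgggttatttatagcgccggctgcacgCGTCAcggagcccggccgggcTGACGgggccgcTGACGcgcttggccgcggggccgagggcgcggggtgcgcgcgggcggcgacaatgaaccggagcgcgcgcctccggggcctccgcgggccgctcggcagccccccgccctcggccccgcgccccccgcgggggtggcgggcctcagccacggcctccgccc
Nr4a3: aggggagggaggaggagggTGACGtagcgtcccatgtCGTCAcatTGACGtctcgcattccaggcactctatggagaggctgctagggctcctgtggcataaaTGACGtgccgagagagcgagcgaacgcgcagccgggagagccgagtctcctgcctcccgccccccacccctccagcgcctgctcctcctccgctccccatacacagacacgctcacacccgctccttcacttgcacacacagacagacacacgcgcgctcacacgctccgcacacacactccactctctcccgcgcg
Btg2: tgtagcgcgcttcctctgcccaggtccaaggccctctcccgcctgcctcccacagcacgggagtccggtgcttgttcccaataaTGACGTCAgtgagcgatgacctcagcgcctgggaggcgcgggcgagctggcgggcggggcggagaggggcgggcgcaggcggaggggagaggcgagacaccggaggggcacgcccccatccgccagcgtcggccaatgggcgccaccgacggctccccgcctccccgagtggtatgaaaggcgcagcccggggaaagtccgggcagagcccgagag

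Each Nr4a promoter held 4 cores, and at least 4 were held by 0.231% of all 32851 promoters and by 0.619% of the 3556 promoters of genes in the marker tables, a limit of 4 that was taken from these genes. Counted from the start, with bases before it negative, they began at -233, -213, -69 and -40 in *Nr4a1*, at -200, -144, -123 and -111 in *Nr4a2*, and at -231, -213, -205 and -147 in *Nr4a3*. The full element of *Btg2* began at -166, and 1.79% of all promoters and 2.81% of those of table genes held it. *Klf2* and *Klf4* held 1 core each, and *Klf6* held 0, so that 6 of the 7 held at least 1, against 20.8% of all promoters and 31.4% of those of table genes. The EGR site GCGGGGGCG, searched on both strands, was in 3 of the 7, *Nr4a1*, *Klf2* and *Klf4*, against 2.91% of all promoters and 5.12% of those of table genes. In all 8 motifs were searched. Of the others, the EGR site GCGTGGGCG was in 0 of the 7 (0.612% of all promoters), the CArG box in 0 (1.63%), the NF-kB site in 1 (8.46%), the sequence TATAAA, on the forward strand only, in 0 (8.32%), and the sequence CACCC in 3 (57.5%). These windows were rich in G and C (72.3% in *Nr4a1*, 81.7% in *Nr4a2*, 64.7% in *Nr4a3* and 72.0% in *Btg2*, against a median of 52.7%), the shares over all promoters were not matched on base composition, and a match is not a bound site.

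The Klf genes did not share 1 set of subclusters. *Klf2* (chromosome 8, 72319033-72321656, plus strand), which keeps lymphocytes quiescent and drives the genes for leaving tissue, was above 0 in 52.3% of the ILC2s. Its share was 87.4% in subcluster 1 and 43.5% in the other ILC2s, a gap of 43.9 percentage points that ranked 3 among the 363 listings of that subcluster, and in 74.0% of subcluster 7 against 52.0%. The subclusters without a listing for it, subcluster 3 among them, had 42.7% together. *Klf4* (chromosome 4, 55527143-55532466, minus strand), a factor best known from epithelia, myeloid cells and reprogramming, had its only listing in subcluster 3, with 43.4% against 18.1%. That gap of 25.3 points ranked 6 among the 237 listings of subcluster 3 and was the largest of the 8 genes listed there. *Klf6* (chromosome 13, 5861482-5870394, plus strand), a widely expressed factor, was above 0 in 87.3% of the ILC2s, with 93.1% of subcluster 3 against 86.3%. *Klf4* and *Klf6* thus had their higher shares in the same subcluster, and *Klf2* in others.

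Of 8 other Klf genes, 4 were listed, with 8 listings in all. *Klf9* and *Klf3* were listed for subcluster 0 (44.4% against 30.9%, and 57.6% against 45.4%) and for subcluster 3 (48.7% against 32.1%, and 53.0% against 47.9%). None of the 8 was listed for subcluster 1, where *Klf2* had its widest gap.

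*Btg2* (chromosome 1, 134075170-134079120, minus strand), which encodes an antiproliferative protein that recruits the CCR4-NOT deadenylase to mRNAs, was above 0 in 86.6% of the ILC2s and had the most listings of the 9, 5 of the 10 subclusters. Only 0.761% of all genes in the table were listed for at least 5. Beside subcluster 5, it was above 0 in 98.0% of subcluster 7 against 86.4%, 96.0% of subcluster 1 against 84.2%, 95.5% of subcluster 8 against 86.5%, and 91.0% of subcluster 3 against 85.8%. Subclusters 0, 2, 4, 6 and 9, which listed none of the 9 genes, had 83.0% together.

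Other genes of the early response were looked up from lists of known members. Of 9 AP-1 genes, which encode the Fos, Jun, Batf and ATF3 factors, 7 had 18 listings, and 6 of the 9 were listed for subcluster 3 (against 9.01% of all genes), with the widest gaps for *Fosl2* (62.7% against 41.3%), *Fosb* (92.4% against 73.9%) and *Fos* (92.9% against 77.9%). Subcluster 5 listed 5 of the 9 (against 38.0%), *Fosb*, *Fosl2*, *Jun*, *Junb* and *Jund*, all with lower shares. Subcluster 1 listed 1, *Batf* (71.2% against 51.3%), and subclusters 7 and 8 listed 2 each (against 10.3% and 9.62% of all genes), led by *Fosl2* (65.5% against 44.2%, and 60.7% against 44.4%). Of the subclusters that listed none of the 9 genes, subcluster 2 listed *Batf* (73.1% against 51.3%) and subcluster 0 listed *Fosb* (85.3% against 73.4%), 1 each (against 4.98% and 11.4% of all genes). Of 17 other early response genes, 16 had 33 listings. Subcluster 3 listed 11 of the 17, against 9.01% of all genes, led by *Zfp36l1* (98.0% against 81.2%), *Ppp1r15a* (82.5% against 65.8%) and *Csrnp1* (54.0% against 37.6%). Subcluster 1 listed 7, against 13.8%, led by *Dusp5*, a phosphatase that inactivates ERK (66.3% against 35.0%), *Zfp36*, which destabilizes mRNAs with AU-rich elements (87.5% against 64.3%), and *Gadd45b* (74.6% against 56.9%). Subcluster 8 listed 6 (against 9.62%) and subcluster 7 listed 4 (against 10.3%), among them *Dusp5* in both (61.8% against 41.1%, and 69.5% against 40.8%). Subcluster 5 listed 3 (against 38.0%), all with lower shares. Subclusters 2 and 4 listed 1 each (against 4.98% and 30.5%), *Dusp1* (83.7% against 74.2%) and *Dusp2* (44.5% against 16.0%).

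The 10 heat shock genes, which rise in stressed cells, overlapped with the 9 genes in 2 of their 5 subclusters. None of them was listed for subclusters 0, 1, 3, 6, 8 or 9. Subcluster 4 listed 6 (against 30.5% of all genes), led by *Hspd1* (95.4% against 59.1%) and *Hsph1* (56.6% against 21.4%), subclusters 5 and 7 listed 5 each (against 38.0% and 10.3%), and subcluster 2 listed 3 (against 4.98%), *Hspa1b* (33.1% against 18.8%), *Hspa1a* (28.7% against 15.3%) and *Dnajb1* (49.1% against 38.6%). Of the 5 in subcluster 5, *Hspa1a* and *Hspa1b* had higher shares and *Hsph1*, *Dnaja1* and *Dnajb1* lower ones. The part of tissue digestion in the early gene listings was not tested.

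**Figure D2:**
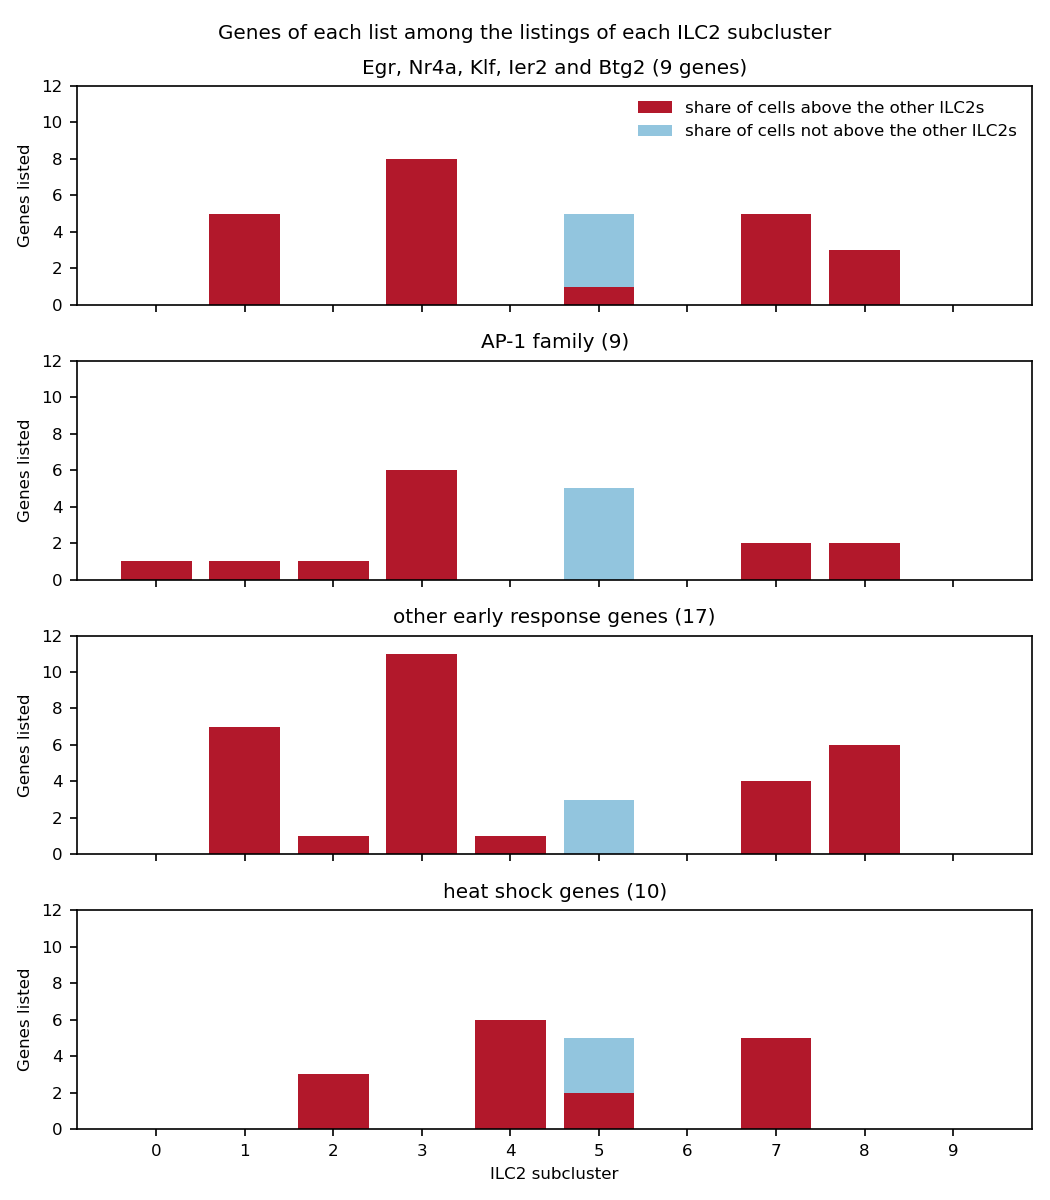
Bars count the genes of 4 lists that each ILC2 subcluster (horizontal axis) listed, dark where the share of cells was above that of the other ILC2s and pale where it was not. Subcluster 3 has the tallest bars in the upper 3 panels (8, 6 and 11 genes) and none in the heat shock panel. The bars of subcluster 5 are wholly pale for the AP-1 and other early response lists and partly dark for the others.

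Genes of other functions were looked up in the same subclusters. Of 5 genes for tissue exit or residence, subcluster 1 listed *S1pr1*, the receptor for lymph and blood S1P and a known target of KLF2 (50.5% against 9.9%), *S1pr4* (79.4% against 44.7%) and the integrin *Itgb7* (97.8% against 85.2%). Subcluster 3 listed *Cd69*, whose protein removes S1PR1 from the cell surface (83.7% against 77.9%), as did subcluster 9 with a wider gap (92.6% against 78.7%), and subcluster 7, the other with a higher share of *Klf2*, listed none of the 5. From a list of 12 ILC2 core and effector genes, subcluster 3 listed 6 (against 9.01% of all genes), among them *Calca* (55.2% against 21.8%), *Areg* (51.7% against 37.4%) and *Il1rl1*, the ST2 receptor (97.0% against 87.8%), but not *Il13*. Other subclusters listed these genes too, *Areg* with wider gaps in subclusters 7 (62.0% against 39.2%) and 8 (57.3% against 39.5%), and *Il1rl1* (96.2% against 86.6%) and *Calca* (33.3% against 24.3%) in subcluster 0. The 5 subclusters that listed *Il13* (1, 2, 4, 7 and 8, together 49.7% of the ILC2s) held 13 of the 26 listings of the 9 genes, against 48.5% of the listings of all genes but *Il13*. *Nr4a1* had 3 of its 4 listings there, *Btg2* 3 of 5, *Nr4a3* and *Klf2* 2 of 3 each, *Ier2* 2 of 4 and *Egr1* 1 of 3, whereas *Nr4a2*, *Klf4* and *Klf6* had 0.

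Across the cell types the shares were on another scale. *Klf4*, for instance, was above 0 in 85.7% of the type named ILC2 but in 21.9% of the ILC2s of the subcluster table, so no value is compared between the tables. *Btg2*, *Ier2* and *Klf6* were above 0 in 94.5%, 93.8% and 93.6% of all cells, *Klf2* in 85.5%, *Nr4a1* in 72.3%, *Klf4* in 72.0%, *Nr4a2* in 68.0%, *Nr4a3* in 64.3% and *Egr1* in 60.6%. *Klf2*, *Ier2* and *Btg2* were listed for 9 of the 21 types each, and 1.25% of all 1679 genes of the table were listed for at least 9. *Nr4a1* and *Klf4* were listed for 5 types, *Klf6* for 4, *Egr1* for 3, *Nr4a2* for 2 and *Nr4a3* for 1.

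The types with the most of the 9 genes were ILC1_ILC3 (5 of 9, against 13.4% of all genes), NK (5, against 11.7%) and gdT_TypeIII_ITGAE (5, against 11.7%). With a gap of at least 5 percentage points required, these fell to 3, 3 and 2, and MMP_LMPP kept 3. The share of all genes passing this gap was not computed. It differed between types, since *Btg2* at 5.5 points ranked 377 of the 403 listings of MMP_LMPP. In ILC1_ILC3, *Btg2* at 4.4 points ranked 212 of 225. Basophil (16.4% of all genes listed), CD4 (7.80%), Treg (8.93%), MMP_LMPP (24.0%), gdT_TypeI (8.64%) and gdT_TypeII (1.67%) listed 3 each, the type ILC2 (8.10%) listed *Klf4* only, and ILC3 and Macrophage listed none. The names are the authors'. Of 5 defining markers looked up for each of these types but ILC1_ILC3 and ILC3, all 5 were listed for Basophil, CD4, ILC2 and NK, 4 for Treg and gdT_TypeIII_ITGAE, 3 for MMP_LMPP, and 2 for gdT_TypeI and Macrophage. Of the 4 looked up for each of ILC1_ILC3 and ILC3, only *Ncr1* was listed for the former and only *Ccr6* for the latter. The type named gdT_TypeII listed none of its 5 and instead listed the ILC2 genes *Il1rl1* (95.3% against 65.6%), *Gata3* (97.6% against 74.0%) and *Areg* (46.3% against 44.0%), so its name went against its listings.

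**Figure D3:**
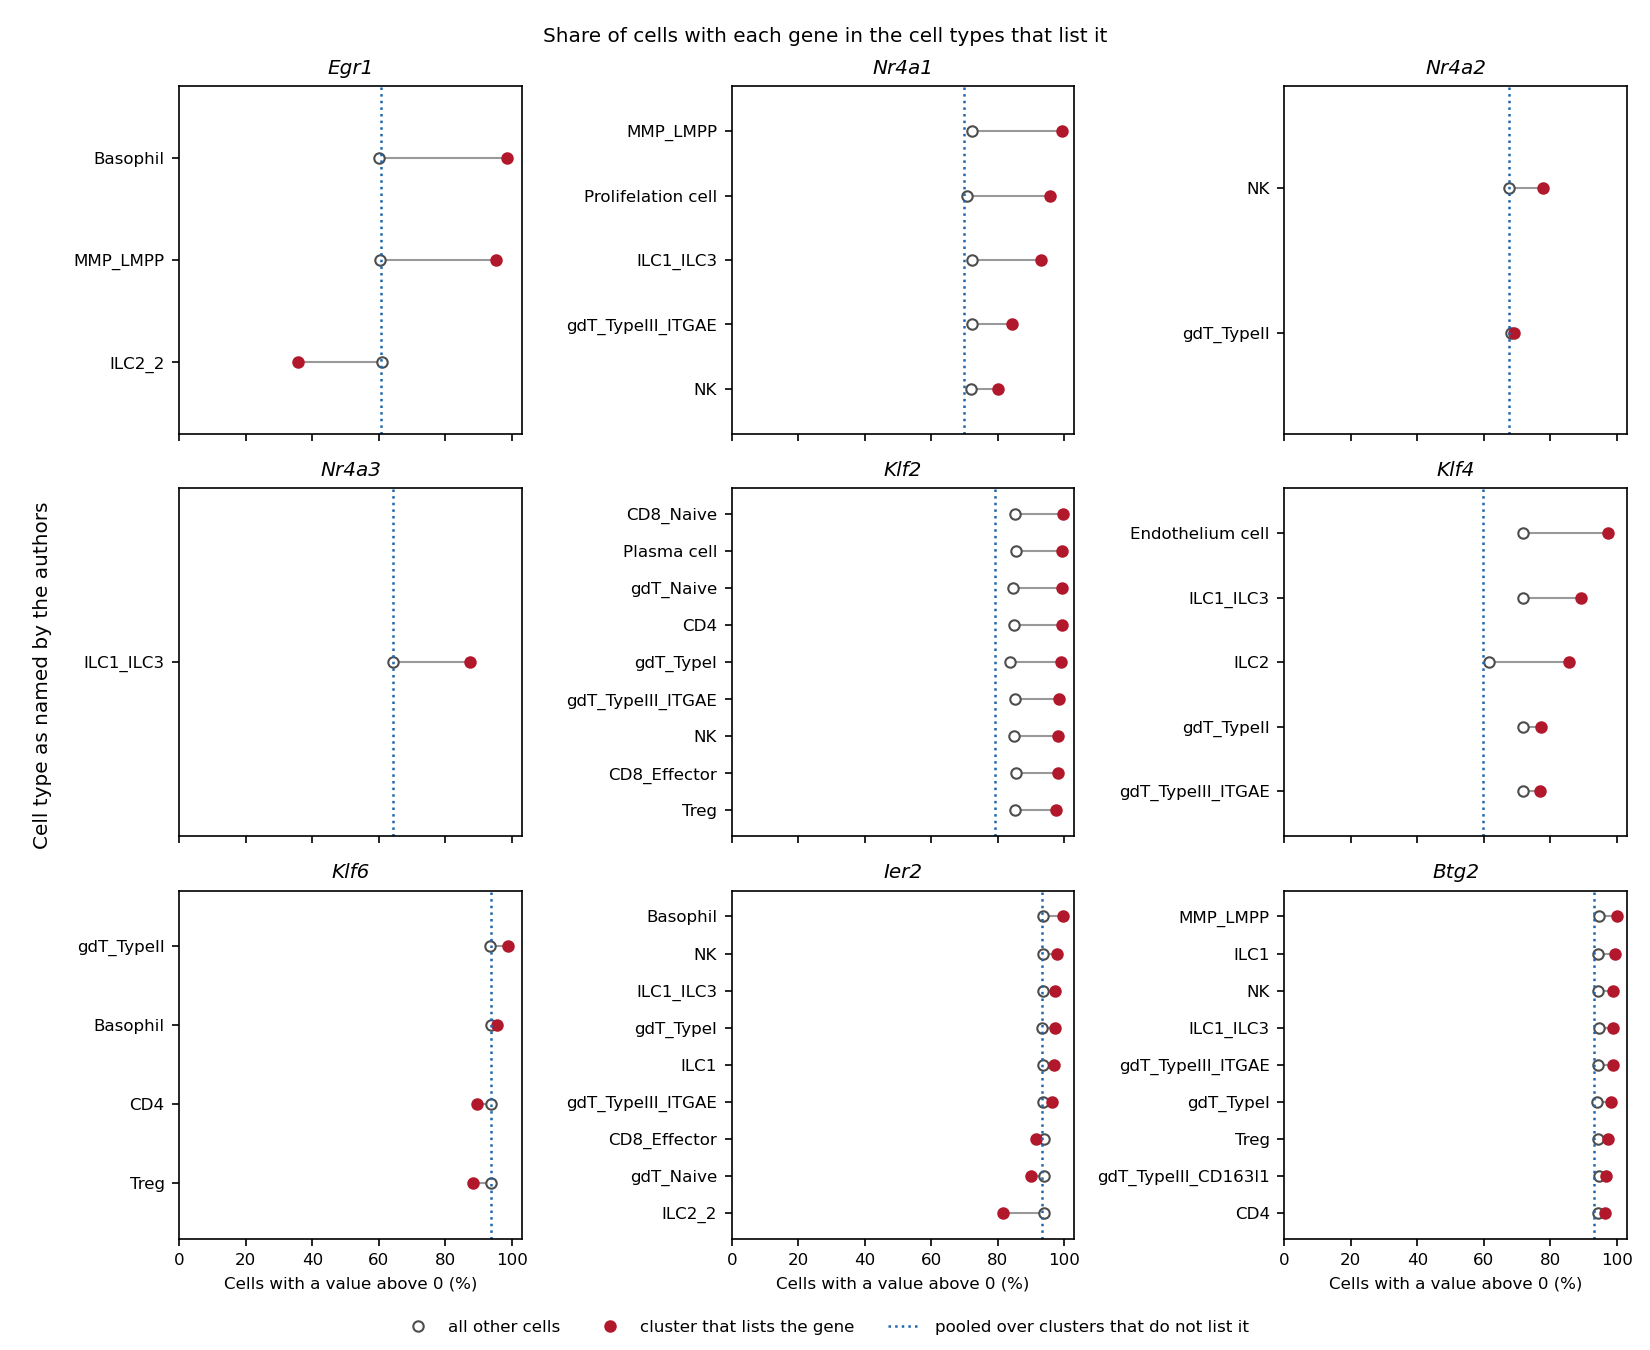
Each panel gives 1 gene; the horizontal axis is the percentage of cells with a value above 0 and each line on the vertical axis a cell type that lists it (filled point, inside the type; open point, all other cells; dotted line, pooled over the types that do not list it). *Egr1* reaches 98.5% of basophils and 95.1% of MMP_LMPP but 35.6% of ILC2_2, whereas *Btg2*, *Ier2* and *Klf6* stay close to the right edge in nearly all types.

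*Egr1* had the 2 widest gaps of the 9 in this table. It was above 0 in 98.5% of basophils against 60.2% of all other cells, in 95.1% of MMP_LMPP against 60.5%, and, with a lower share, in 35.6% of ILC2_2 against 61.1%. *Egr3*, the only one of its 5 family and corepressor genes in the table, was listed for basophils (85.1% against 49.5%) and MMP_LMPP (99.2% against 49.7%) as well, and with a lower share for Plasma cell (28.8%, a difference of -21.2 percentage points from all other cells). The basophils also listed *Ier2* (99.7% against 93.7%) and *Klf6* (95.5% against 93.6%), together with 4 of 9 AP-1 genes (against 16.4% of all genes), led by *Fosl1* (89.6% against 42.0%), and 9 of 17 other early response genes, led by *Ier3* (97.3% against 37.2%).

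The Nr4a listings shared MMP_LMPP with *Egr1* and otherwise fell on other types. *Nr4a1* was above 0 in 99.2% of MMP_LMPP against 72.2% of all other cells, in 95.7% of the type spelled Prolifelation cell against 70.7%, in 92.9% of ILC1_ILC3 against 72.2%, in 84.4% of gdT_TypeIII_ITGAE against 72.1% and in 80.1% of NK against 72.0%. *Nr4a3* was listed for ILC1_ILC3 alone (87.4% against 64.2%). *Nr4a2* was listed for NK (77.9% against 67.6%) and gdT_TypeII (69.1% against 68.0%), the latter a gap of about 1 point. No type listed all of the 3 genes.

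*Klf2* was listed mainly for T cells. Its 9 types were CD4, CD8_Effector, CD8_Naive, Treg, gdT_Naive, gdT_TypeI, gdT_TypeIII_ITGAE, NK and Plasma cell, in which its share ran from 97.4% (Treg) to 99.5% (CD8_Naive), against 79.2% over the 12 other types together. *S1pr1* was listed for 7 of these 9 types and 2 of the 12 others, and *Ccr7*, the lymph node homing receptor, for 5 and 1, and 33.0% of the listings of all genes but *Klf2* were in these 9 types. *S1pr4* and *Itgb7*, listed with *Klf2* for subcluster 1, were listed for none of the 21 types. *S1pr1* reached 88.0% in gdT_Naive against 67.7% and 84.7% in CD4 against 68.4%, and *Ccr7* 95.9% in CD8_Naive against 72.0%. The 2 other types that listed *S1pr1* did not list *Klf2*, and 1 of them had its widest gap, Endothelium cell (98.4% against 68.7%), beside ILC2_2 (76.4% against 68.8%). Not all of these listings had higher shares, since *S1pr1* was lower in CD8_Effector (62.6% against 69.0%), and *Ccr7* in CD4 (70.6% against 72.7%) and Treg (63.6% against 72.8%). *Cd69* was listed for 2 of the 9 types and 5 of the 12.

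**Figure D4:**
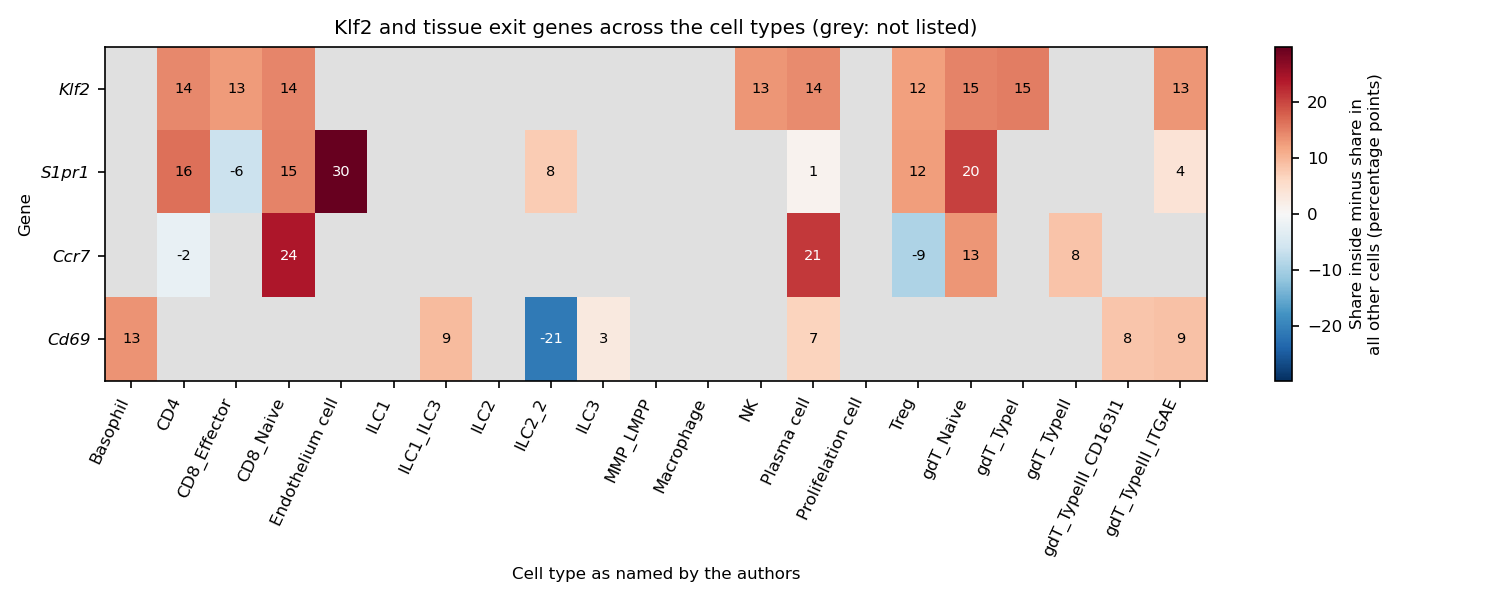
Colours and numbers give the share of cells inside a type minus that in all other cells, in percentage points, for *Klf2* and 3 tissue exit or residence genes (vertical axis) in the 21 cell types (horizontal axis); grey marks no listing. CD8_Naive, gdT_Naive and Plasma cell carry positive values for *Klf2*, *S1pr1* and *Ccr7*, and the type ILC2 carries none of the 4.

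*Klf4* was above 0 in 97.2% of Endothelium cell against 71.8% of all other cells, in 89.1% of ILC1_ILC3 against 71.9% and in 85.7% of the type ILC2 against 61.6%, with smaller gaps in gdT_TypeII (77.2% against 71.9%) and gdT_TypeIII_ITGAE (76.8% against 71.9%). It was the only gene of the 9 listed for ILC2, where *Klf5* (66.6% against 31.1%) and *Klf9* (81.2% against 63.8%) were listed too. *Klf6* was higher in gdT_TypeII (99.0% against 93.5%) and had lower shares in CD4 (89.5% against 93.8%) and Treg (88.3% against 93.7%). Lower shares were common in CD4 and Treg, at 76.3% and 51.3% of their listings.

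The shares of *Ier2* and *Btg2* lay close to 100% in this table, so a higher level could hardly raise them. *Btg2* ran from 96.5% (CD4) to 100% (MMP_LMPP) in the 9 types that listed it and was at 93.0% over the others together. The 7 between them were gdT_TypeIII_CD163l1 (96.8%), Treg (97.4%), gdT_TypeI (98.1%), gdT_TypeIII_ITGAE (98.7%), ILC1_ILC3 and NK (98.9% each) and ILC1 (99.5%). *Ier2* had higher shares in 6 types, led by basophils and NK (97.9% against 93.6%), followed by ILC1_ILC3 (97.3%), gdT_TypeI (97.2%), ILC1 (96.8%) and gdT_TypeIII_ITGAE (96.2%), and lower shares in ILC2_2 (81.6% against 94.0%), gdT_Naive (89.9% against 94.0%) and CD8_Effector (91.6% against 93.8%). Lower shares were common in those 3 types, at 53.0%, 74.5% and 60.6% of their listings.

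The genes with the most similar sets of listing clusters were found by the Jaccard index, the number of shared clusters divided by the number in either set. Over the 10 subclusters, *Nr4a1* matched *Hilpda* exactly (index 1), followed by *Btg2* (0.80) and *Gadd45b* (0.75). *Nr4a3* matched *Gadd45b*, *Zfp36* and *Tnfaip3* (index 1), *Klf2* matched *Itga4* and *Tpm4* (index 1), and *Egr1* matched *Myo6*, *Spty2d1* and *Sik1* (index 1). *Btg2* had an index of 0.80 with *Pim1*, *Ier2*, *Hilpda* and *Nr4a1*. Over the 21 types the indices were lower, with *Cd2* nearest to *Klf2* (0.80), *Dusp5* to *Ier2* (0.70), *Csf2* to *Klf4* (0.60), *Ifrd1* to *Klf6* (0.60), *Tpi1* and *Odc1* to *Nr4a1* (0.60), and *Klrk1* and *Nfil3* to *Btg2* (0.60). With few listings per gene, equal sets were frequent, and 39 genes shared the set of *Klf6* in the ILC2 subcluster table.

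The gene models were mostly short. Leaving out *Egr1*, whose sequence on chromosome 18 was not scanned, the 8 other genes had a median span of 7118.5 bases and 4.5 exons, against 24874 bases and 9 exons over 3435 genes of the tables, but *Nr4a3* spanned 41295 bases, *Nr4a1* 20527 and *Nr4a2* 17174, and each Nr4a gene had 8 exons. The AU-rich sequence TATTTAT, searched on the transcript strand of the 3′ UTR, was in 62.5% of the 8 against 28.0%, and ATTTA in 87.5% against 67.3%. Pooled over all 3′ UTR bases of each set, ATTTA came to 1.96 per 1000 bases against 1.94, so this pooled density was nearly the same.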

How the data were processed

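ILC2s were sorted from liver and lung, and 1 droplet 3′ library per group was made. The authors aligned reads with Cell Ranger to mm10, clustered cells in Seurat and removed doublets and dead cells by flow cytometry. No doublet caller was described. The deposited values used are fractions of cells (shares) with a value above 0, within a cluster and outside it, rounded to 3 decimals, from tables over all 4 libraries. The tables also hold the authors' own average differences and p-values, which were not used beyond a check that 0 listings had a negative difference. There were 0 unmapped columns of per-sample values.

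Cluster sizes were solved by least squares from the fact that the share in others plus size times (inside minus others) is constant for a gene, over genes with at least 2 listings. On simulated shares with known sizes, no size was off by more than 0.0204 percentage points in the cell type table (1045 genes) and 0.0177 in the ILC2 subcluster table (768 genes). The simulated shares were drawn independently for each cluster and the sizes were more even than those solved, so this checks the calculation and is no error bound for the data. In the data, the largest standard errors of the fit were 0.0400 points (gdT_TypeII) and 0.0315 (subcluster 3). Shares in all cells and in non-listing clusters follow from the sizes. The percentage of all genes listed accompanies the counts of the 9 genes. Python 3.11.15, numpy 2.4.6 and pandas 2.3.3 were used.

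The genes and lists were chosen with earlier results of these data known. Every listing of the 9 genes was named, and 1 gene of the tissue exit list and 1 cell type marker are not reported here. Other lists gave up to 3 genes per cluster by difference of shares, and likeness was computed for genes with at least 2 listings. The 3′ UTR scan was added after the other values were seen. Alternatives were minimum gaps in share, and other ways to solve the sizes. The tables hold no depth or cell number per cluster, and the totals stated in the paper were not used, so no interval was given.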

Additional observations from a re-analysis of the deposited data

How the results depend on the processing

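Counting only listings with a share at least 5 or 10 percentage points above the other cells left 26 and 20 of the 47 listings of the 9 genes in the cell type table, and a gap of 10 points left 15 of the 26 in the ILC2 subcluster table. At a gap of 5 points, CD4, Treg and gdT_TypeI kept 1 gene each, gdT_TypeIII_ITGAE 2, ILC1_ILC3, NK and MMP_LMPP 3 each, and subcluster 5 kept 0. At 10 points, Basophil, CD4, Treg and gdT_TypeI kept 1 each, NK and gdT_TypeIII_ITGAE 2 each, ILC1_ILC3 3 and gdT_TypeII 0, while subcluster 3 kept 4 and subcluster 5 kept 0. Subcluster 7 then kept 5, subcluster 1 kept 4 and subcluster 8 kept 2. Most of the 270 listings of subcluster 7 pass that gap (*Btg2*, ranked 247, had 11.6 points), and the share of all genes passing it was not computed. With any higher share counted, subcluster 5 kept 1. Shares near 100% leave little room for such gaps. Solving the sizes from genes with at least 3 listings or with a fixed sum, or taking the overall share from the largest listing cluster, moved no size by more than 0.0320 percentage points and no overall share by more than 0.0491. No paired analysis was possible because no value belonged to a single library and there was 1 library a group. The comparison of protein sequences was not run. The tables hold no number of cells per cluster, and the cell totals stated in the paper were not used, so the counting error of a share was not computed. Small clusters such as subclusters 8 (0.668% of the ILC2s) and 7 (1.42%) rest on the fewest cells.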
